A study of Mus musculus with 21 samples.

Results

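Imprinted genes are expressed mainly from a single parental copy, for many of them chosen by DNA methylation that the egg or the sperm laid down. In the embryo the methylation is kept by factors such as ZFP57, TRIM28 and DNMT1, and in primordial germ cells, the precursors of eggs and sperm, it is erased and later set again according to sex. Many imprinted genes tune growth of the fetus and placenta: Igf2, expressed from the paternal copy, promotes growth, while the maternally expressed Igf2r, Grb10, Cdkn1c and Phlda2 restrain it. The arrays measured total transcript and not which parental copy it came from, so no value below is a measure of imprint status.

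A list of 45 mouse imprinted genes was followed through germ cell induction in culture on Illumina bead arrays, in 21 samples of 7 groups with 3 arrays each. All probes that the platform annotation assigns to a listed symbol were taken, and a probe was kept if its detection p-value was below 0.05 on at least 3 of 21 arrays. Of the 45 genes, 33 were tested among 11649 genes in all. Of the other 12, 3 had no probe under their symbol (H19, Snrpn and Zrsr1), and 9 had probes that were not kept (Meg3, Kcnq1, Nnat, Sgce, Zim1, Plagl1, Nap1l5, Asb4 and Tfpi2), with log2 signals between 4.4 and 5.2. Meg3 and Kcnq1 stood nearest below the cut-off, with 2 arrays detected each, and Magel2 and Ascl2 just inside it, with 3 arrays each. The tested genes had 52 kept probes, 17 of the genes were detected on all 21 arrays, and 15 had more than 1 kept probe. Where a gene had several, the probe with the highest mean signal stood for it.

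The groups came from 3 mouse embryonic stem cell lines. The first line carried the Otx2GFP/lacZ alleles, called Otx2-/- by the submitters, together with Blimp1-/-, and is called the double mutant here. The second carried the Otx2GFP/lacZ alleles alone, and the third was wild-type (WT) E14Tg2a. OTX2 is a transcription factor of the epiblast, and BLIMP1 (encoded by Prdm1) a repressor needed for germ cell fate. Day-6 aggregates of all 3 lines, made from epiblast-like cells (EpiLC) in medium with EGF, SCF, LIF, BMP4 and BMP8a, were sorted for SSEA1+ CD61+ cells, giving the groups double-mutant PGCLC (primordial germ cell-like cells), Otx2-/- PGCLC and WT PGCLC. A further day-6 group, Otx2-/- EB, held SSEA1+ CD61+ cells of Otx2-/- aggregates kept in the basal medium with no cytokines. The starting EpiLC of each line, grown for 2 days with FGF and activin, made up the remaining 3 groups. Each genotype was a single cell line, no Blimp1-/- line with intact Otx2 and no WT aggregate without cytokines was analysed here, and the labels do not say whether replicates were separate cultures, so p-values measure the spread between these arrays.

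Depth and identity were checked over all genes first. Arrays detected 14088 to 15861 probes in EpiLC, 17527 to 19556 in day-6 cells of the WT and Otx2-/- lines, and 15961 to 16507 in double-mutant PGCLC, of 45281. The mean correlation of an array with its own group was 0.983 to 0.993. Germ cell markers (Tfap2c, Prdm14, Dppa3, Nanos3, Kit, Dnd1, Tcl1 and Dazl) were all detected in every day-6 group. Their summed signal was 6000 to 6680 in double-mutant PGCLC, 12800 to 15200 in Otx2-/- PGCLC, 19700 to 23400 in Otx2-/- EB and 20600 to 24700 in WT PGCLC. In EpiLC it was at most 1890 on any array. The 7 naive pluripotency markers (Esrrb, Klf2, Klf4, Tfcp2l1, Tbx3, Nr5a2 and Zfp42) were all detected in every day-6 group too. Their sums were 17900 to 19200 in double-mutant PGCLC, 34000 to 36300 in Otx2-/- PGCLC, 29800 to 31700 in Otx2-/- EB and 29200 to 36400 in WT PGCLC. In EpiLC these were at most 1740. The Otx2 probe did not check the genotype: its mean log2 signal was 11.36 ± 0.10 in Otx2-/- EpiLC and 10.98 ± 0.24 in WT EpiLC (SD, n = 3 each), and the sources used here do not say whether it lies in the replaced part. The Prdm1 probe was not kept.

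The start-site sequences of 5 genes that the results turn on are given first. They were not chosen as the regions that carry the imprints, and neither methylation nor factor binding was measured here. RefSeq promoter windows (build GRCm38.p6, 250 bases before to 50 after a start) were held for 25 of the 33 tested genes, 41 windows in all. The windows carried a median of 17 CpG dinucleotides, against 7 over all 32851 windows of the table. The hexamer TGCCGC, the core that ZFP57 binds when methylated, was found on either strand in 6 of 41 windows (14.6%, against 11.6% of all windows), and TAATCC, an OTX2 core, in 4 of 41 (9.76%, against 7.06%). By gene these were 5 and 3 of 25, since overlapping Mest windows hold the same matches. The BLIMP1 core AGTGAAAG was in 0 of 41 (against 1.32%). Capitals mark TGCCGC and TAATCC on either strand, and no 2 matches overlap. Of several windows of a gene, 1 with matches is shown, with TAATCC taken first, so another Igf2 window that holds 1 TGCCGC is not printed.

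Igf2 chr7:142658755-142659054, minus strand: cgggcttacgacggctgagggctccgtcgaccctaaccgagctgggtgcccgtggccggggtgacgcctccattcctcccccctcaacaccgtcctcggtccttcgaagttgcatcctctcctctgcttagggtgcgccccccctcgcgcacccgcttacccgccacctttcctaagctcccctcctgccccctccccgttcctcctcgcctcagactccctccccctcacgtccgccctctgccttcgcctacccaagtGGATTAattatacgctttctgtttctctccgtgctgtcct
Mest chr6:30737800-30738099, plus strand: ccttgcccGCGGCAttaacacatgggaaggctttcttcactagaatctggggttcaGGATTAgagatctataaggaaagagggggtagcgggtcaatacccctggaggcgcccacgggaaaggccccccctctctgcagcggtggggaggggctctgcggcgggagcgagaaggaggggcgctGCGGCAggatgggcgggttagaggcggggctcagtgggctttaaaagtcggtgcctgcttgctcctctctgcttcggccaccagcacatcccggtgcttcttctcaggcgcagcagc
Zdbf2 chr1:63200108-63200407, plus strand: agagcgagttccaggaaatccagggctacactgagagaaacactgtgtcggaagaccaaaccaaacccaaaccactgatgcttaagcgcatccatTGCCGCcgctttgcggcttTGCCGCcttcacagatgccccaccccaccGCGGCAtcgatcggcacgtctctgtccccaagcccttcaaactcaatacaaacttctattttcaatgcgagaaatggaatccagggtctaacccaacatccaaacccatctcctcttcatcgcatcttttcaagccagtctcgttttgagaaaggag
Grb10 chr11:12037371-12037670, minus strand: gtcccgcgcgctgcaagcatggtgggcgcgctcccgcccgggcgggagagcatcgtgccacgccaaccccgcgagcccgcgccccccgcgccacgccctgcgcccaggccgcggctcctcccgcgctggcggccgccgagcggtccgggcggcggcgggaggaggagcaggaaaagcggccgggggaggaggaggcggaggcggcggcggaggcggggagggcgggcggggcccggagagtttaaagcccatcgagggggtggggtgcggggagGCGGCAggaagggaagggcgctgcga
Peg3 chr7:6730370-6730669, minus strand: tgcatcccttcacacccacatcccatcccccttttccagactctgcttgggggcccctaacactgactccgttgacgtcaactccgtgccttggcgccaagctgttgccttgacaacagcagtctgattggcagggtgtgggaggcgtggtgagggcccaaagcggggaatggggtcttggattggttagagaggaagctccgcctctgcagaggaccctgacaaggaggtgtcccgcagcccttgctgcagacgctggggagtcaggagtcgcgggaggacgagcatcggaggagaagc

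The Igf2 window holds 1 TAATCC match and 24 CpG, that of Mest holds 2 TGCCGC and 1 TAATCC, and that of Zdbf2 holds 3 TGCCGC. The Grb10 window is the richest of these in CpG, with 45, and has 1 TGCCGC. Peg3 and Usp29 are a divergent pair: the windows lie on opposite strands of chromosome 7 and share 263 bases, and neither motif is in the Peg3 window. Such matches describe letters only.

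Signals are given as normalised log2 intensity per array, and differences as log2 differences ± the standard error (SE) of a fit over all 21 arrays, with p-values adjusted over all 11649 genes. A gene is called where the adjusted p-value is below 0.05. Between WT PGCLC and WT EpiLC, 17 of 33 imprinted genes were called higher and 3 lower (60.6%), against 62.8% of all genes called (35.4% higher, 27.4% lower), so the share called lay near the background while the median change was 0.87, against 0.06 over all genes. Between Otx2-/- PGCLC and Otx2-/- EpiLC it was 16 higher and 8 lower, against 65.4% of all genes called (35.8% higher, 29.6% lower), with a median of 0.56. Between Otx2-/- EB and Otx2-/- EpiLC it was also 16 and 8 (median 0.44), against 66% of all genes called (35.8% higher, 30.2% lower). Magel2 is among the 8 lower genes in both Otx2-/- comparisons, and it passed the detection filter only with Otx2-/- EpiLC arrays. In the double mutant 6 were higher and 10 lower in PGCLC than in EpiLC (background 43.2%, with 20.5% of all genes higher and 22.8% lower), and the median was -0.15. Of the 17 tested genes listed as paternally expressed, 11 rose and 0 fell in the WT induction. Of the 15 listed as maternally expressed, 6 rose and 3 fell. The difference between these shares was not tested, and the copy used in these cells was not measured. Among the 11, Impact was called lower at its second probe, and Peg10 passed the detection filter only through its WT PGCLC arrays. Snurf, which shares a transcript with the unprobed Snrpn, is outside the count. It was called lower in WT at some probes (-1.03 ± 0.18 and -1.42 ± 0.16) and not called at its others. In bulk samples such as these, fewer cells of a type and less RNA per cell cannot be told apart.

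**Figure D1:**
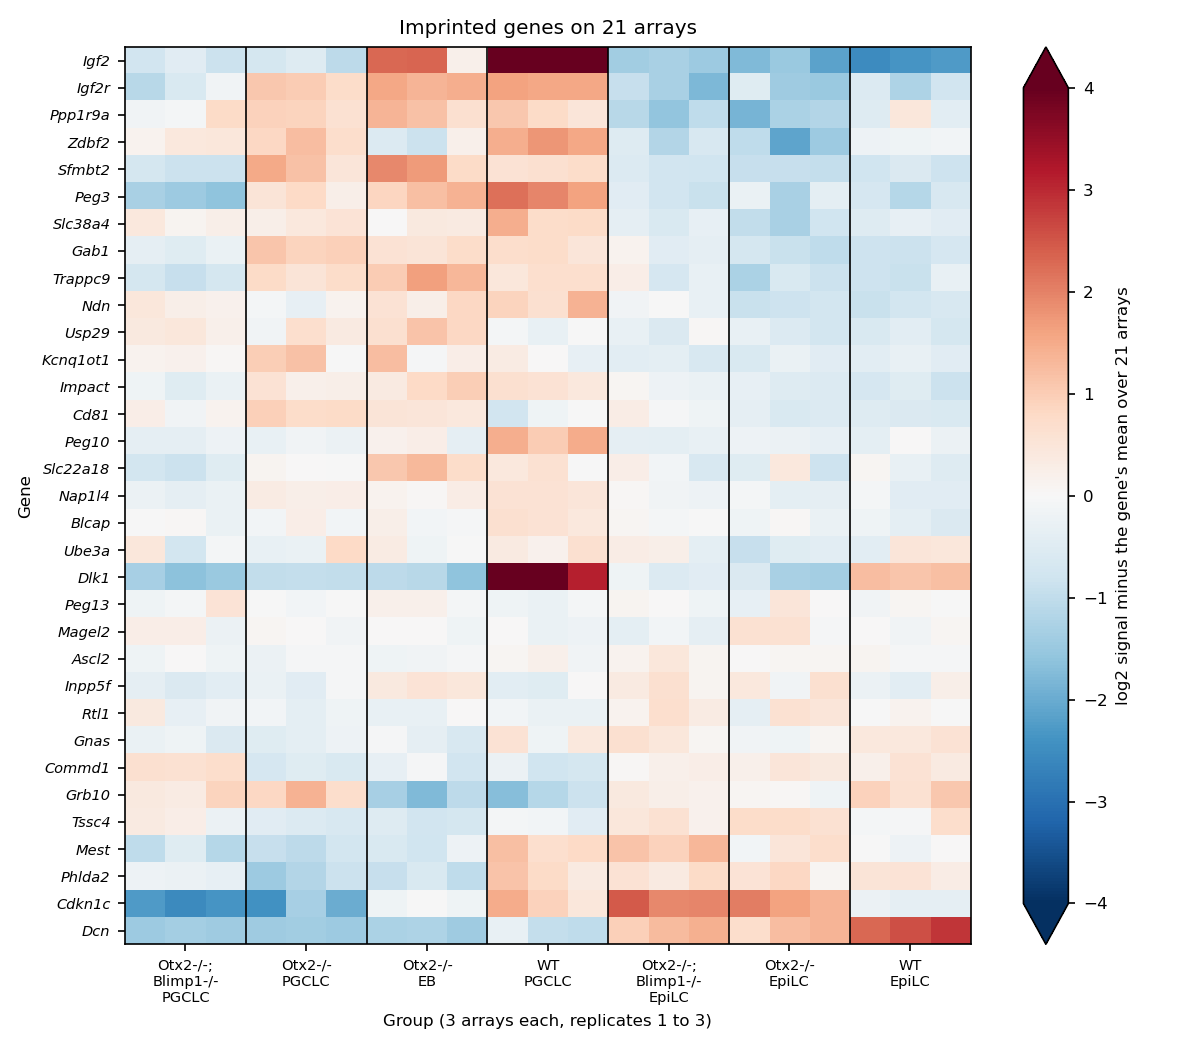
Heat map of the 33 tested imprinted genes (rows) on the 21 arrays (columns, 3 per group), as log2 signal minus the mean of the gene over all arrays. Rows are sorted by the mean over the 12 day-6 arrays. Igf2 and Dlk1 were highest on the 3 WT PGCLC arrays, and Cdkn1c was lowest in double-mutant and Otx2-/- PGCLC.

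The lines differed most at day 6. Between Otx2-/- PGCLC and WT PGCLC, 2 imprinted genes were called higher and 12 lower, 42.4% of the 33 against 21.3% of all genes (8.94% of all genes higher, 12.4% lower). Those at or beyond 2 on the log2 scale were Igf2, Dlk1, Cdkn1c and Grb10, 4 of 33, against 0.678% of all genes. Otx2-/- EB differed from WT PGCLC in 5 higher and 13 lower (background 24.4%, with 10.2% of all genes higher and 14.2% lower). These comparisons share the WT PGCLC arrays. The change by day 6 differed between the Otx2-/- and the WT line for 14 genes, 10 of them with a lower change in the Otx2-/- line (background 16.4% called, 7.97% higher and 8.45% lower). Peg10 counts as lower in each of these comparisons, and it passed the detection filter only through its WT PGCLC arrays.

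Igf2 encodes the fetal insulin-like growth factor 2. Its log2 signal was 8.11, 8.31 and 7.76 in Otx2-/- PGCLC, against 14.36, 14.28 and 13.94 in WT PGCLC. In EpiLC it was 7.06, 7.34 and 6.69 in the Otx2-/- line and 6.29, 6.45 and 6.55 in the WT line. The WT PGCLC arrays lay far above all others, and the Otx2-/- PGCLC arrays lay above the EpiLC arrays of both lines. Igf2 rose by 7.76 ± 0.34 in the WT induction (217-fold, adjusted p = 1.43e-14) and by 1.03 ± 0.34 in the Otx2-/- induction (adjusted p = 0.0116), a difference in change of -6.73 ± 0.49 (adjusted p = 1.89e-09). The small rise in the Otx2-/- line depended on single arrays: it was 0.86 without Otx2-/- EpiLC replicate 3 (adjusted p = 0.0557) and 0.91 without Otx2-/- PGCLC replicate 2 (adjusted p = 0.0501). Without cytokines, Otx2-/- EB had 11.1, 11.15 and 9.01, all above the Otx2-/- PGCLC arrays, with replicate 3 apart from the other 2. Otx2-/- PGCLC thus differed from Otx2-/- EB by -2.36 ± 0.34 (adjusted p = 2.86e-05), or -3.07 without EB replicate 3. Double-mutant PGCLC had 8.05, 8.37 and 7.97, overlapping the Otx2-/- PGCLC arrays, and the rise over double-mutant EpiLC (7.44, 7.52 and 7.37) was not called (0.68 ± 0.34, adjusted p = 0.117).

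Igf2r, expressed from the maternal copy, encodes the receptor that takes IGF2 up for degradation, and it did not follow the ligand. Its signal was 9.01, 8.95 and 8.69 in Otx2-/- PGCLC, 9.48, 9.30 and 9.38 in Otx2-/- EB and 9.54, 9.48 and 9.50 in WT PGCLC. In EpiLC it was 7.45, 6.53 and 6.45 in the Otx2-/- line and 7.40, 6.70 and 7.19 in the WT line. Igf2r rose by 2.08 ± 0.26 with cytokines and 2.58 ± 0.26 without them in the Otx2-/- line, and by 2.41 ± 0.26 in WT, and the difference between the Otx2-/- and WT inductions was not called (-0.33 ± 0.36, adjusted p = 0.591). Double-mutant PGCLC had only 6.83, 7.34 and 7.79, below every Otx2-/- PGCLC array (-1.56 ± 0.26, adjusted p = 2.41e-05). A second Igf2r probe gave -1.38 ± 0.23 for the same difference, and also called Otx2-/- PGCLC lower than WT PGCLC (-0.79 ± 0.23, adjusted p = 0.0162), which the first did not (-0.62 ± 0.26, adjusted p = 0.0879).

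Grb10 encodes an adaptor that damps insulin and IGF receptor signalling. It was 9.86, 10.43 and 9.76 in Otx2-/- PGCLC, against 7.35, 7.91 and 8.19 in WT PGCLC, a difference of 2.20 ± 0.22 (4.59-fold, adjusted p = 1.53e-07). The EpiLC signal of Grb10 was 9.12, 9.08 and 8.87 in the Otx2-/- line, and 9.95, 9.65 and 10.11 in the WT line. Grb10 therefore rose in Otx2-/- PGCLC (0.99 ± 0.22, adjusted p = 0.000399) and fell in WT PGCLC (-2.09 ± 0.22, adjusted p = 1.95e-08). Otx2-/- EB, with 7.70, 7.27 and 8.00, lay with WT PGCLC and below all Otx2-/- PGCLC arrays. The difference between Otx2-/- PGCLC and Otx2-/- EB was 2.36 ± 0.22 (adjusted p = 5.57e-08). Double-mutant PGCLC had 9.43, 9.36 and 9.92, and no change from double-mutant EpiLC (9.43, 9.27 and 9.21) was called. The second Grb10 probe, much dimmer, gave 0.73 ± 0.19 between Otx2-/- PGCLC and WT PGCLC, and did not call the difference of inductions (0.36 ± 0.27 against 3.08 ± 0.31), nor that between PGCLC and EB (0.43 ± 0.19, adjusted p = 0.172).

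Dlk1, a Notch-related ligand of fetal growth expressed from the paternal copy, was 5.51, 5.55 and 5.51 in Otx2-/- PGCLC, against 11.28, 10.63 and 9.60 in WT PGCLC (-4.98 ± 0.27, adjusted p = 7.08e-12). The EpiLC signal of Dlk1 was 5.91, 5.21 and 5.13 in the Otx2-/- line, of which 1 array passed detection, against 7.74, 7.59 and 7.69 in WT (-2.25 ± 0.27, adjusted p = 2.52e-06). The lines thus differed in Dlk1 before induction, and the change by day 6 differed further, by -2.72 ± 0.39 (adjusted p = 2.95e-05). Otx2-/- EB had 5.46, 5.38 and 4.89, and the difference between Otx2-/- PGCLC and EB was not called (0.28 ± 0.27). Double-mutant PGCLC had 5.16, 4.84 and 5.01, against 6.32, 5.95 and 6.04 in double-mutant EpiLC (-1.10 ± 0.27, adjusted p = 0.00217). That fall was 0.00 ± 0.27 at the second Dlk1 probe and -0.05 on the authors' normalised values. Of the neighbours of Dlk1 in its cluster, Rtl1, a retrotransposon-derived gene, had 4.66 to 5.73 in all groups and was called in no comparison, and Meg3 was not kept.

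Cdkn1c encodes p57, an inhibitor of the cell cycle expressed from the maternal copy, and it changed in opposite directions in the lines. It was 8.02, 9.11 and 8.48 in Otx2-/- PGCLC, against 11.95, 11.38 and 10.91 in WT PGCLC (-2.88 ± 0.25, adjusted p = 1.28e-08). In EpiLC the order was turned: 12.49, 12.07 and 11.81 in the Otx2-/- line and 10.21, 10.09 and 10.09 in WT (1.99 ± 0.25, adjusted p = 2.98e-06). Cdkn1c fell by 3.59 ± 0.25 in the Otx2-/- induction and rose by 1.28 ± 0.25 in the WT induction, a difference of -4.87 ± 0.35 (adjusted p = 1.83e-09). Otx2-/- EB stood between, with 10.29, 10.44 and 10.27, and Otx2-/- PGCLC differed from Otx2-/- EB by -1.80 ± 0.25 (adjusted p = 1.15e-05). Double-mutant PGCLC had 8.19, 7.90 and 8.10, overlapping Otx2-/- PGCLC, against 12.91, 12.37 and 12.41 in double-mutant EpiLC (-4.50 ± 0.25, adjusted p = 6.97e-13). The difference from Otx2-/- PGCLC was not called (-0.47 ± 0.25, adjusted p = 0.121).

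**Figure D2:**
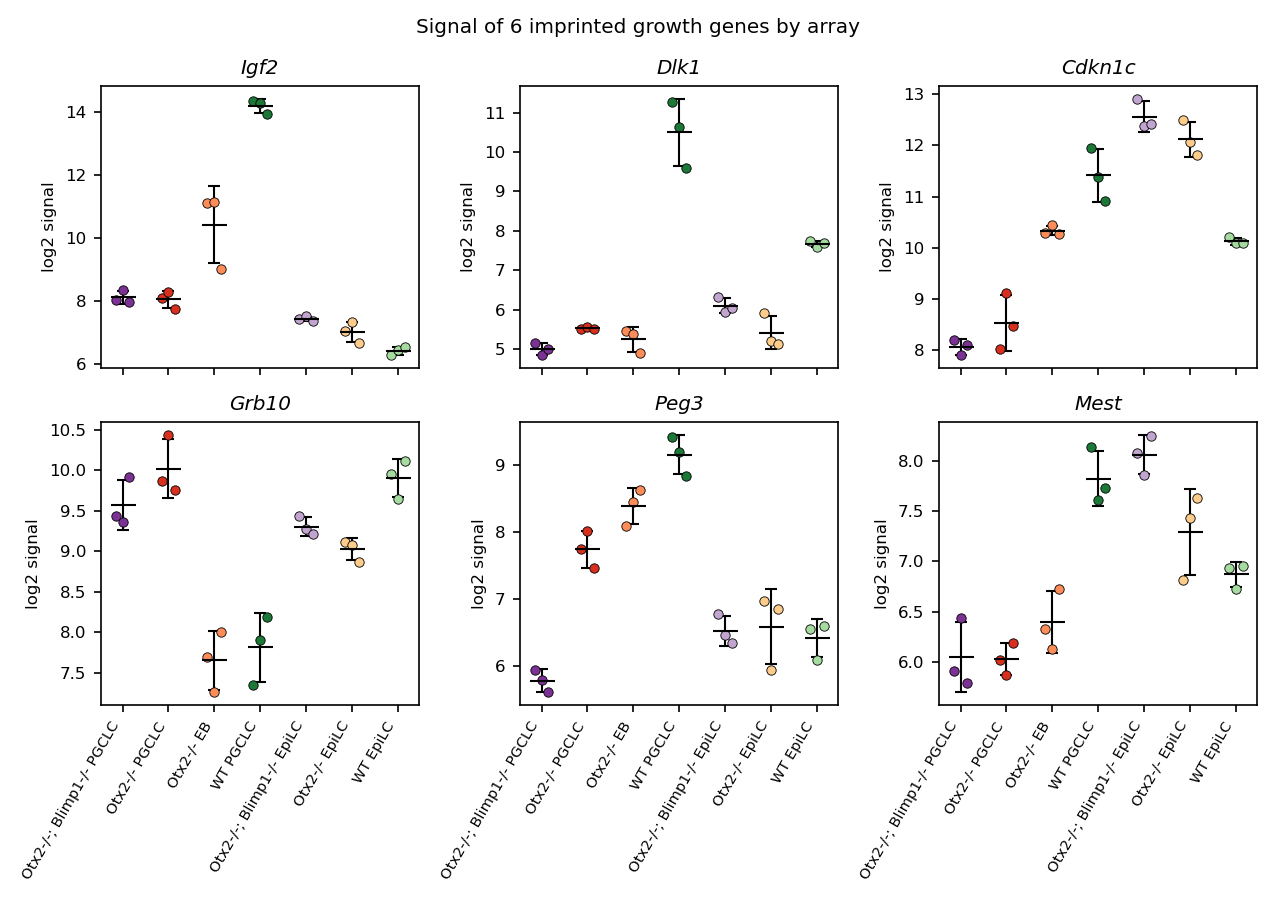
Log2 signal (y axis) of Igf2, Dlk1, Cdkn1c, Grb10, Peg3 and Mest in the 7 groups (x axis). Points are single arrays, bars the mean ± SD of 3 arrays. Igf2 and Dlk1 stood above all other groups in WT PGCLC, whereas Grb10 in WT PGCLC and Otx2-/- EB lay below the other 5 groups.

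Cdkn1c belongs to the Kcnq1 domain, a cluster with 8 tested members. Of these, 3 rose and 3 fell in the Otx2-/- induction with cytokines (35.8% of all genes rose and 29.6% fell), 4 rose and 3 fell in Otx2-/- EB (35.8% and 30.2%), and in WT 2 rose and 0 fell (35.4% and 27.4%). Phlda2, a brake on placental growth, fell by 1.65 ± 0.20 in Otx2-/- PGCLC and by 1.34 ± 0.20 in Otx2-/- EB, and was not called in WT (0.30 ± 0.20, adjusted p = 0.206). The difference between the 2 PGCLC inductions, Otx2-/- minus WT, was -1.95 ± 0.29 (adjusted p = 4.39e-05). In double-mutant PGCLC Phlda2 was 10.97, 10.92 and 10.83, higher than the 9.72, 10.00 and 10.30 of Otx2-/- PGCLC (0.90 ± 0.20, adjusted p = 0.000736). Cd81, a tetraspanin of the cell surface, rose by 1.32 ± 0.17 in Otx2-/- PGCLC and was not called in WT (0.24 ± 0.17), with a difference in change of 1.07 ± 0.24 (adjusted p = 0.00338). Tssc4 fell in both Otx2-/- inductions (-1.24 ± 0.19 and -1.34 ± 0.19 without cytokines). Slc22a18, a membrane transporter, was called only in Otx2-/- EB among the 4 inductions (1.32 ± 0.26, adjusted p = 9.74e-05), and its second probe gave 0.00 ± 0.18.

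The long non-coding RNA Kcnq1ot1, which silences the domain on the paternal copy, was not detected in EpiLC of any line and was detected on every array of all 4 day-6 groups. It rose by at least 1.56-fold in Otx2-/- PGCLC (adjusted p = 0.00073) and at least 1.34-fold in Otx2-/- EB (adjusted p = 0.00431). Such bounds set a group with no detected array at the lowest detectable signal. In WT the rise was not called (adjusted p = 0.19). Its Otx2-/- PGCLC arrays, 6.2, 6.39 and 5.20, overlapped those of WT PGCLC, 5.57, 5.25 and 4.91. The histone chaperone gene Nap1l4, with 11.7 to 12.8 on all arrays, rose by 0.87 ± 0.14 in WT and 0.56 ± 0.14 in Otx2-/- PGCLC. Ascl2, a transcription factor of trophoblast precursors, was detected on 3 arrays only and stayed between 4.64 and 5.32.

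Peg3 and Usp29, the divergent pair with the shared promoter, were both called higher in Otx2-/- PGCLC and in Otx2-/- EB than in Otx2-/- EpiLC. Peg3, which encodes a zinc finger protein, was 7.74, 8.01 and 7.46 in Otx2-/- PGCLC, 8.09, 8.44 and 8.62 in Otx2-/- EB and 9.42, 9.19 and 8.84 in WT PGCLC. In EpiLC it was 6.97, 5.94 and 6.84 in the Otx2-/- line and 6.55, 6.08 and 6.59 in WT. The rise was smaller in Otx2-/- PGCLC than in WT PGCLC, 1.16 ± 0.23 against 2.75 ± 0.23, a difference of -1.59 ± 0.33 (adjusted p = 0.00159). In the double mutant Peg3 was 5.94, 5.78 and 5.61 in PGCLC, against 6.77, 6.45 and 6.34 in EpiLC (-0.74 ± 0.23, adjusted p = 0.0119), and the difference of its PGCLC from Otx2-/- PGCLC was -1.96 ± 0.23 (adjusted p = 4.01e-07). The dimmer second Peg3 probe gave -0.56 ± 0.17 for that last difference and called no fall in the double mutant (0.16 ± 0.17). Usp29, which encodes a deubiquitinase, was 5.76, 5.83 and 5.59 in double-mutant PGCLC, 5.25, 6.06 and 5.73 in Otx2-/- PGCLC, 6.01, 6.51 and 6.21 in Otx2-/- EB and 5.30, 5.09 and 5.35 in WT PGCLC. It was not detected in WT or Otx2-/- EpiLC, and rose at least 1.31-fold in Otx2-/- PGCLC and at least 1.94-fold in Otx2-/- EB. In the double mutant Usp29 was called higher in PGCLC than in EpiLC (0.62 ± 0.19, adjusted p = 0.0116), where Peg3 was called lower. The second Usp29 probe, at 0.42 ± 0.18, did not call that rise.

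Zdbf2, a paternally expressed zinc finger gene, was 7.5, 7.93 and 7.39 in Otx2-/- PGCLC and 8.14, 8.45 and 8.22 in WT PGCLC. The EpiLC signal of Zdbf2 was 5.68, 4.57 and 5.24 in the Otx2-/- line, with 1 array detected, and 6.49, 6.51 and 6.57 in WT (-1.36 ± 0.25, adjusted p = 0.000401). The difference in EpiLC was -0.11 on the authors' normalised values and not called there. Zdbf2 rose by 2.45 ± 0.25 in Otx2-/- PGCLC and 1.74 ± 0.25 in WT PGCLC, and the difference of these was not called (0.70 ± 0.35, adjusted p = 0.196). Otx2-/- EB had only 6.13, 5.82 and 6.87, so that Otx2-/- PGCLC were higher by 1.34 ± 0.25 (adjusted p = 0.00053). Double-mutant PGCLC had 6.81, 7.10 and 7.14, against 6.18, 5.52 and 6.04 in double-mutant EpiLC (1.10 ± 0.25, adjusted p = 0.000949). That rise was 0.62 on the authors' normalised values and not called there.

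Mest, a paternally expressed gene for a hydrolase-like protein, moved in opposite directions in the lines. It was 6.02, 5.87 and 6.19 in Otx2-/- PGCLC, against 8.14, 7.61 and 7.73 in WT PGCLC, with no overlap (-1.80 ± 0.21, adjusted p = 1.26e-06). The EpiLC signal of Mest was 6.81, 7.43 and 7.63 in the Otx2-/- line and 6.93, 6.73 and 6.95 in WT. Mest fell in Otx2-/- PGCLC (-1.26 ± 0.21) and in Otx2-/- EB (-0.89 ± 0.21), whose arrays were 6.33, 6.13 and 6.73, and rose in WT PGCLC (0.96 ± 0.21). The induction changes of Otx2-/- PGCLC and WT PGCLC differed by -2.22 ± 0.30 (adjusted p = 1.43e-05), and both further Mest probes called that difference too (-1.81 ± 0.41 and -2.28 ± 0.40). In the double mutant Mest was 5.91, 6.44 and 5.79 in PGCLC, against 8.08, 7.86 and 8.25 in EpiLC (-2.02 ± 0.21, adjusted p = 4.1e-08).

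Sfmbt2, a Polycomb-related gene expressed from the paternal copy and needed in trophoblast, was not detected on any EpiLC array. It was 6.96, 6.61 and 5.93 in Otx2-/- PGCLC, 7.37, 7.15 and 6.21 in Otx2-/- EB and 6.01, 6.08 and 6.17 in WT PGCLC. Against the EpiLC of the same line it was at least 2.31-fold higher in Otx2-/- PGCLC, 3.07-fold in Otx2-/- EB and 1.92-fold in WT PGCLC. In double-mutant PGCLC, with 4.72, 4.57 and 4.59, it was again not detected, at least 2.75-fold lower than in Otx2-/- PGCLC (adjusted p = 6.83e-07). On the authors' normalised values this difference was -0.24 and not called (adjusted p = 0.58). The rises in Otx2-/- PGCLC (0.24) and WT PGCLC (0.05) were not called on those values either, while that in Otx2-/- EB was. Those values are compressed at the low end: 82.4% of them lie within 1 log2 unit of the lowest, 4.06, and so do 53% of the values of the imprinted genes.

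Gab1, which encodes an adaptor of receptor tyrosine kinases, was lower in double-mutant PGCLC than in every other day-6 group. It was 11.13, 11.00 and 11.22 in double-mutant PGCLC, against 12.60, 12.37 and 12.43 in Otx2-/- PGCLC (-1.35 ± 0.15, adjusted p = 2.13e-07). Otx2-/- EB had 12.07, 11.98 and 12.21 and WT PGCLC 12.19, 12.21 and 11.95. The EpiLC signal of Gab1 was 11.63, 11.03 and 11.12 in the double mutant, 10.77, 10.60 and 10.46 in the Otx2-/- line and 10.64, 10.63 and 10.80 in WT. Gab1 rose by 1.86 ± 0.15 in Otx2-/- PGCLC and was not called in the double mutant (-0.15 ± 0.15, adjusted p = 0.475), a difference of -2.0 ± 0.22 (adjusted p = 2.11e-07).

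Trappc9, a gene for a vesicle-tethering subunit, was also lowest at day 6 in the double mutant. It was 5.04, 4.81 and 5.04 in double-mutant PGCLC, against 6.51, 6.25 and 6.48 in Otx2-/- PGCLC (-1.45 ± 0.22, adjusted p = 7.15e-06). Otx2-/- EB had 6.75, 7.36 and 7.06, and WT PGCLC 6.2, 6.39 and 6.39. In EpiLC, arrays ranged from 5.06 to 5.99 in the double mutant, 4.46 to 5.13 in the Otx2-/- line, where none was detected, and 4.83 to 5.43 in WT. The second Trappc9 probe did not call the difference between the PGCLC groups (0.19 ± 0.17), nor did the authors' normalised values (-0.09, adjusted p = 0.876). Peg13, the non-coding RNA of the same domain, was detected on 4 arrays and called in no comparison.

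**Figure D3:**
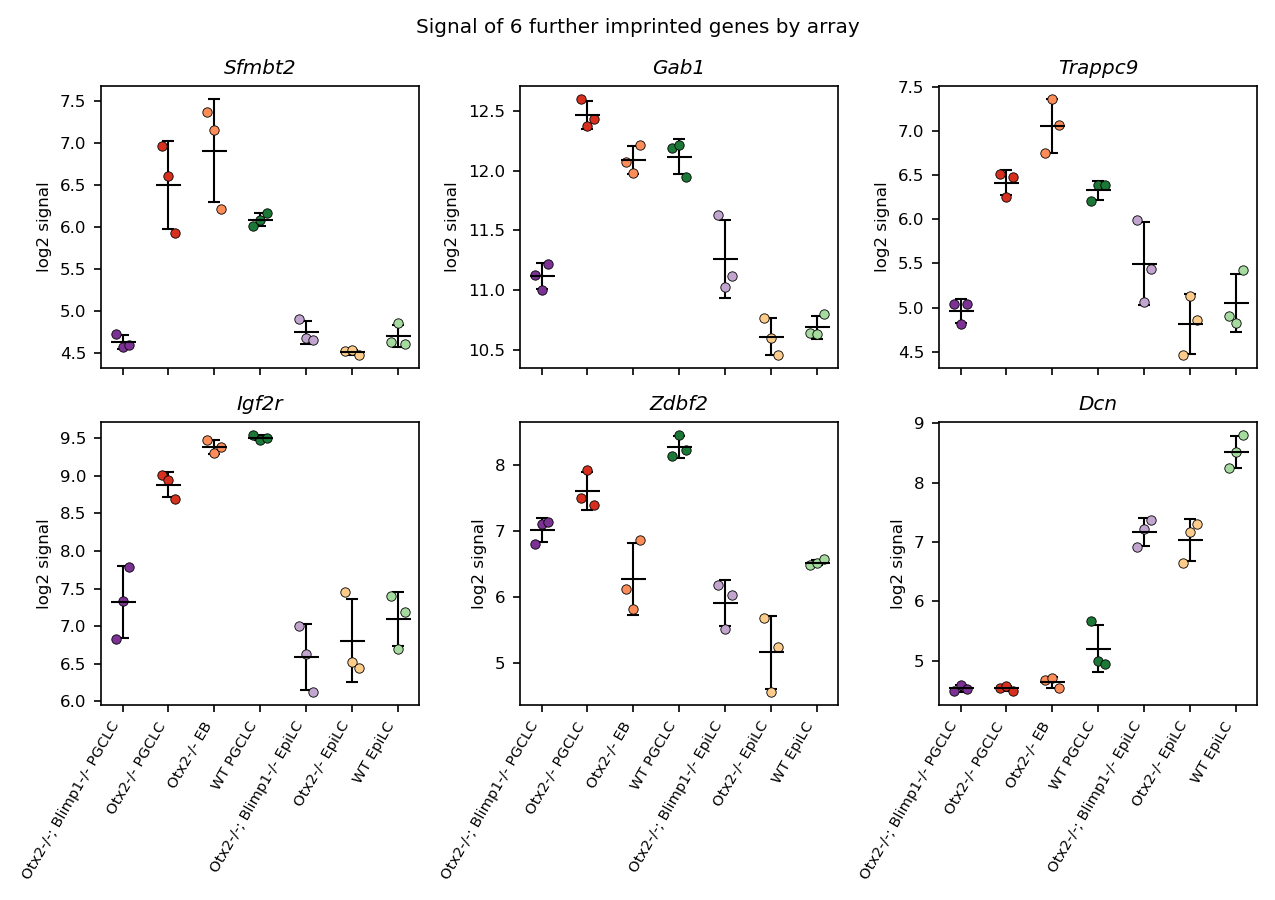
Log2 signal (y axis) of Sfmbt2, Gab1, Trappc9, Igf2r, Zdbf2 and Dcn in the 7 groups (x axis). Points are single arrays, bars the mean ± SD of 3 arrays. Sfmbt2, Gab1, Trappc9 and Igf2r were lower in double-mutant PGCLC than in the other 3 day-6 groups, and Dcn was higher in all EpiLC groups than in any day-6 group.

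Ppp1r9a, a gene for an actin-binding protein next to Peg10 and Sgce, was 7.82, 7.80 and 7.5 in Otx2-/- PGCLC, 8.25, 8.06 and 7.53 in Otx2-/- EB and 7.98, 7.67 and 7.38 in WT PGCLC. These overlapped. In EpiLC it was 5.03, 5.62 and 5.73 in the Otx2-/- line and 6.37, 7.34 and 6.47 in WT (-1.27 ± 0.27, adjusted p = 0.00168). The larger rise in the Otx2-/- line, 2.25 ± 0.27 against 0.95 ± 0.27 in WT, gave a difference of 1.30 ± 0.38 (adjusted p = 0.0222). That call was lost without any of 4 single arrays (adjusted p = 0.0518 to 0.0683), and the second Ppp1r9a probe did not give it (0.62 ± 0.27). Double-mutant PGCLC had 6.76, 6.81 and 7.66, against 5.78, 5.33 and 5.89 in EpiLC (1.41 ± 0.27). On the authors' normalised values this rise (0.94), the EpiLC difference between Otx2-/- and WT (-0.58) and the difference of inductions (0.68) were not called. Peg10, a retrotransposon-derived gene needed for the placenta, was detected on all 3 WT PGCLC arrays (6.37, 5.92 and 6.38), on 2 of 3 Otx2-/- EB arrays (5.07, 5.18 and 4.55), and on no array of any other group. Otx2-/- PGCLC were at least 2.46-fold below WT PGCLC (adjusted p = 3.36e-07). Peg10 passed the detection filter only through its WT PGCLC arrays, so this p-value lends no support of its own. On the compressed values of the authors the same difference was -0.07, with an adjusted p of 0.000108.

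Dcn, a gene for the matrix proteoglycan decorin, fell in all 4 inductions. It was 4.48, 4.59 and 4.52 in double-mutant PGCLC, 4.53, 4.57 and 4.49 in Otx2-/- PGCLC and 4.67, 4.70 and 4.53 in Otx2-/- EB, with no array detected in these groups, and 5.66, 5.00 and 4.94 in WT PGCLC. The EpiLC signal of Dcn was 6.91, 7.21 and 7.37 in the double mutant, 6.64, 7.17 and 7.31 in the Otx2-/- line and 8.25, 8.51 and 8.80 in WT. The fall was -3.32 ± 0.19 in WT PGCLC (adjusted p = 1.22e-12) and at least 4.34-fold in double-mutant PGCLC, 4.33-fold in Otx2-/- PGCLC and 4.37-fold in Otx2-/- EB. The dim second Dcn probe, detected on 3 arrays, called the fall in WT (-1.35 ± 0.16) but not in the other inductions. Otx2-/- EpiLC differed from WT EpiLC by -1.48 ± 0.19 (adjusted p = 6.2e-06).

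Among the genes of the Snrpn domain, Ndn, which encodes the growth suppressor necdin, rose by 1.73 ± 0.18 in WT PGCLC, 0.73 ± 0.18 in Otx2-/- PGCLC and 1.35 ± 0.18 in Otx2-/- EB. Otx2-/- PGCLC (8.76, 8.51 and 8.99) lay below WT PGCLC (9.74, 9.48 and 10.22), a difference of -1.06 ± 0.18 (adjusted p = 0.000158). Magel2 and the ubiquitin ligase gene Ube3a changed by less than 1 in all comparisons, and Ube3a was called in none. Magel2 was detected on 3 arrays, 2 of them Otx2-/- EpiLC, and passed the detection filter only with these. It was called in 4 comparisons, each of which holds Otx2-/- EpiLC, so these calls lend no support of their own. The dimmer second Ube3a probe was called in 7 comparisons, with rises of 0.74 ± 0.16 in Otx2-/- PGCLC and 0.80 ± 0.16 in Otx2-/- EB over Otx2-/- EpiLC. Snurf, which shares a transcript with the unprobed Snrpn, was chosen after its annotation was seen. It had 4 kept probes, and 2 of them fell in every induction, by 1.5 ± 0.18 and 2.22 ± 0.16 in double-mutant PGCLC, 1.12 ± 0.18 and 1.98 ± 0.16 in Otx2-/- PGCLC, 0.71 ± 0.18 and 1.65 ± 0.16 in Otx2-/- EB, and 1.03 ± 0.18 and 1.42 ± 0.16 in WT PGCLC. The brightest probe was called in Otx2-/- PGCLC (-0.48 ± 0.16) and the double mutant (-1.48 ± 0.16) alone, and the dimmest in none.

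Of the remaining genes, Slc38a4, an amino acid transporter, rose by 1.41 ± 0.18 in WT PGCLC and at least 2.30-fold in Otx2-/- PGCLC and 2.09-fold in Otx2-/- EB. On the authors' normalised values the Otx2-/- rises were 0.11 and 0.08 and not called. Commd1, an inhibitor of NF-kappa-B and copper regulator, fell in WT PGCLC (-0.96 ± 0.17) and Otx2-/- PGCLC (-0.94 ± 0.17) but rose in double-mutant PGCLC (0.48 ± 0.17, adjusted p = 0.0268). The induction change of Commd1 in the double mutant exceeded that of Otx2-/- PGCLC by 1.42 ± 0.24 (adjusted p = 4.52e-05), and a second probe by 2.54 ± 0.31. Impact, a regulator of translation under stress, rose by 1.21 ± 0.17 in WT PGCLC, whereas a second probe called a fall there (-1.07 ± 0.24), so its direction in WT is not settled. Gnas, Blcap and Inpp5f were called in 4 comparisons each, by less than 1 in each.

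**Figure D4:**
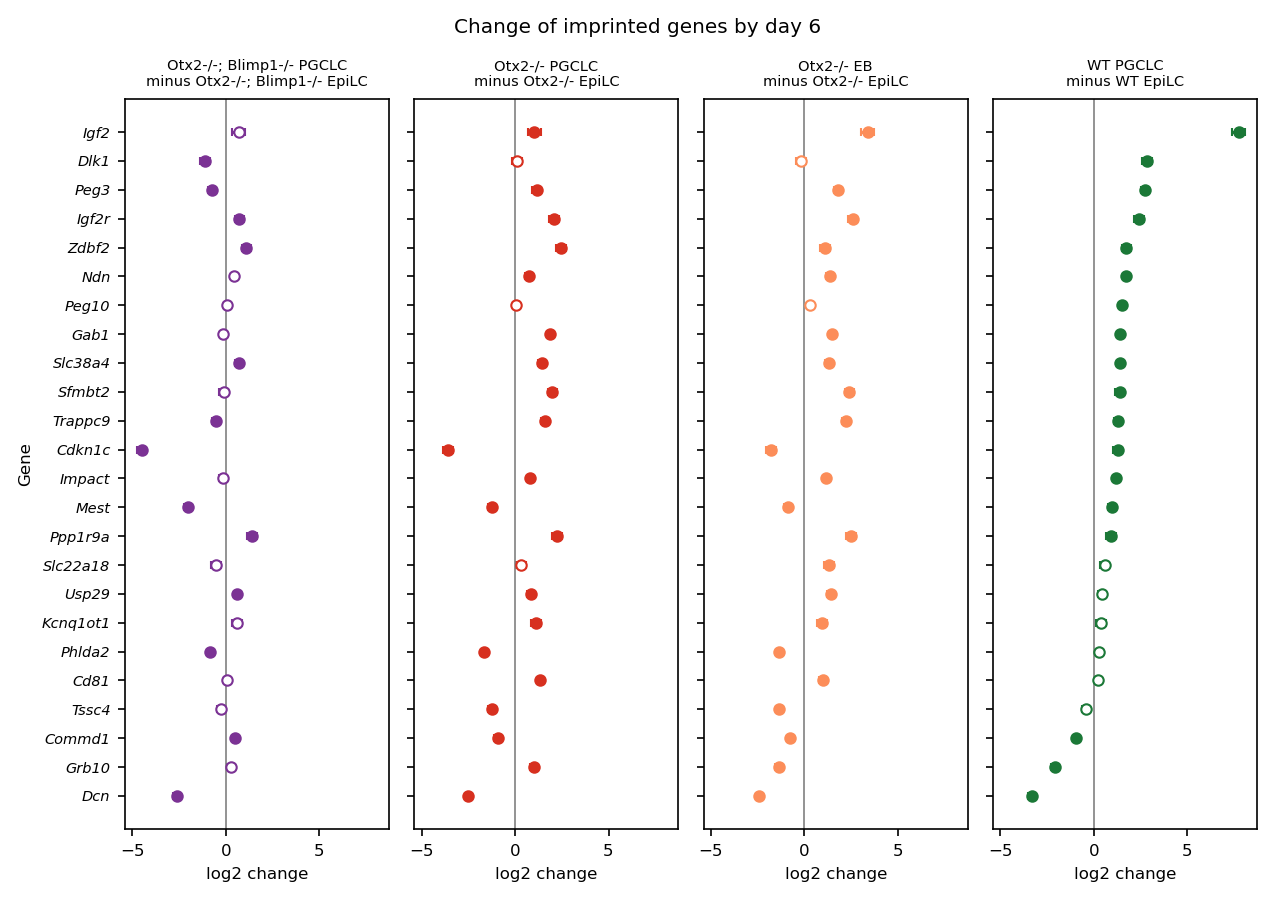
Log2 change ± SE (x axis) of 24 imprinted genes by day 6 in the 4 inductions (panels). Filled points have an adjusted p-value below 0.05. Igf2 had the largest rise in WT (7.76), while Cdkn1c fell in the double mutant (-4.50), in Otx2-/- PGCLC (-3.59) and in Otx2-/- EB (-1.79) and rose in WT (1.28).

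The cytokines could be compared within the Otx2-/- line. Between Otx2-/- PGCLC and Otx2-/- EB, 2 imprinted genes were called higher (Grb10 and Zdbf2) and 7 lower, 27.3% of the 33 against 15.7% of all genes (8.38% higher, 7.37% lower). The lower ones were Igf2, Cdkn1c, Slc22a18, Inpp5f, Trappc9, Ndn and Usp29, by -0.57 to -2.36. The count was 5 without Otx2-/- EB replicate 2. Between double-mutant and Otx2-/- PGCLC, 3 were higher (Phlda2, Tssc4 and Commd1) and 9 lower, a share of 36.4% below the background of 48.3% of all genes called (20% higher, 28.3% lower). Over the same groups the summed germ cell marker signal was 6000 to 6680 in double-mutant PGCLC and 12800 to 15200 in Otx2-/- PGCLC, and its part in these differences was not tested. The sum hides that of the 8 markers 6 were lower in the double mutant and 1, Dazl, was higher (1.11 ± 0.20). Between Otx2-/- and WT PGCLC, 5 of the 8 were lower and 2 higher (12.4% and 8.94% of all genes). The difference of induction changes, double mutant minus Otx2-/-, was called for 17 genes, 51.5%, near the background of 48.8% (20.1% higher, 28.7% lower). Of these 17, 4 were higher and 13 lower, and the median over the 33 genes was -0.73, against -0.13 over all genes.

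Before induction the lines differed in fewer imprinted genes. Otx2-/- EpiLC differed from WT EpiLC in 1 higher (Cdkn1c) and 7 lower (Dlk1, Dcn, Zdbf2, Ppp1r9a, Grb10, Slc38a4 and Gnas), 24.2% against 18.7% of all genes (8.22% higher, 10.5% lower). On the authors' normalised values this count was 4. Between double-mutant and Otx2-/- EpiLC 7 were higher and 1, Magel2, lower (background 16%, with 9.79% of all genes higher and 6.21% lower), each by less than 1. Magel2 passed the detection filter only with Otx2-/- EpiLC arrays. That count of 8 became 0 without double-mutant EpiLC replicate 1, with 7 genes at an unadjusted p-value below 0.05 by the same limma fit, and 5 without Otx2-/- EpiLC replicate 2, Otx2-/- EpiLC replicate 3 or double-mutant EpiLC replicate 3.

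**Figure D5:**
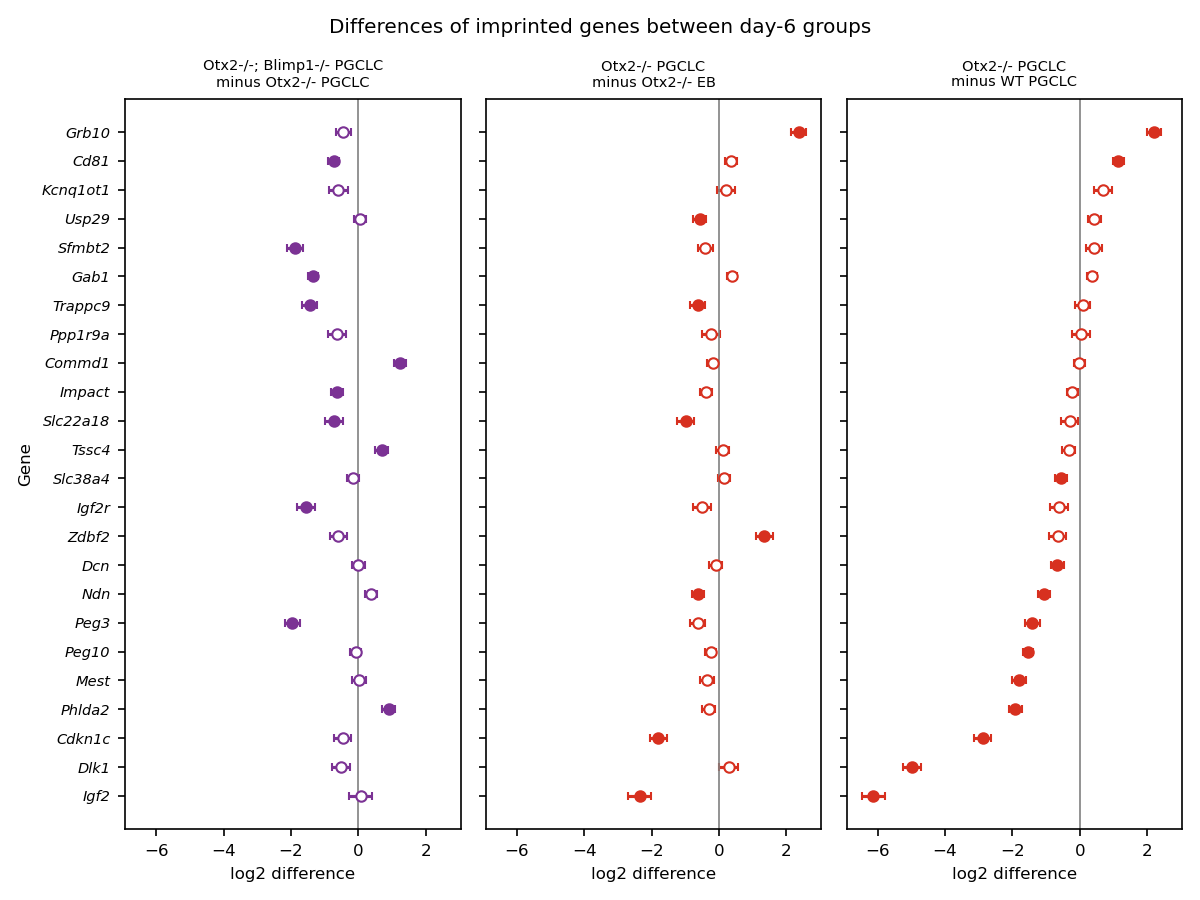
Log2 difference ± SE (x axis) of the same 24 genes between day-6 groups, with double-mutant minus Otx2-/- PGCLC at the left, Otx2-/- PGCLC minus Otx2-/- EB in the middle and Otx2-/- PGCLC minus WT PGCLC at the right. Filled points have an adjusted p-value below 0.05. Igf2, Dlk1 and Cdkn1c were lowest in the right panel, at -6.13, -4.98 and -2.88, and Grb10 highest, at 2.20.

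Markers of other cell types were also compared between Otx2-/- and WT PGCLC, and the lists did not all move the same way. Of 10 tested mesoderm markers of 13 listed, 5 were lower in Otx2-/- PGCLC and 0 higher (12.4% of all genes were lower and 8.94% higher, for the marker counts that follow too), with a summed signal of 130 to 156 in Otx2-/- PGCLC, 120 to 136 in Otx2-/- EB and 594 to 688 in WT PGCLC. Cdx2 was not detected in Otx2-/- PGCLC and lay at 7.71 to 8.20 in WT PGCLC, while Mixl1, Mesp1 and Hand1 were not kept in any group. Cdx2 and Wnt5a, both among the lower ones, were detected in WT PGCLC alone. They passed the detection filter only through those arrays, so their calls lend no support of their own. Of 9 tested trophoblast and amnion markers of 10 listed, 6 were lower in Otx2-/- PGCLC and 1 higher, with sums of 507 to 628 in Otx2-/- PGCLC, 759 to 1150 in Otx2-/- EB and 1980 to 3160 in WT PGCLC. Gata3, among the lower ones, was detected in WT PGCLC alone and passed the detection filter only through those arrays, so its call lends no support either. Elf5 was not kept, and Ascl2 stands on this list and among the imprinted genes. Endoderm markers (8 tested of 14) were lower in 4 and higher in 0, with sums of 388 to 664 in Otx2-/- PGCLC, 217 to 332 in Otx2-/- EB and 1050 to 1360 in WT PGCLC, and Sox17, Foxa2, Afp and Ttr were not kept. Mesenchyme markers (4 tested of 8) had sums of 236 to 294 in Otx2-/- PGCLC, 48.6 to 66.8 in Otx2-/- EB and 1730 to 3670 in WT PGCLC. Of these, Acta2 alone was called between Otx2-/- and WT PGCLC (-6.40 ± 0.24), and it already differed in EpiLC (-4.94 ± 0.24). Of the 7 naive pluripotency markers 1 was lower and 2 higher. Of 5 tested epiblast-like markers of 6 listed, 2 were lower and 1, Otx2 itself, was higher. The part of these marker lists in the values of Igf2, Dlk1, Cdkn1c, Peg10 and Mest was not tested.

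Of 24 listed genes that set, keep or remove imprints, 19 were tested, and Zfp57, Dnmt3a, Tet2, Tet3 and Nlrp2 were not. Over EpiLC, 5 rose and 3 fell in double-mutant PGCLC (20.5% of all genes rose and 22.8% fell), 10 rose and 4 fell in Otx2-/- PGCLC (35.8% and 29.6%), and 9 rose and 5 fell in WT PGCLC (35.4% and 27.4%). Dnmt1, the methyltransferase that copies methylation at replication, rose by 0.52 ± 0.19 in double-mutant PGCLC, 2.23 ± 0.19 in Otx2-/- PGCLC and 1.70 ± 0.19 in WT PGCLC. Trim28, the co-repressor recruited by ZFP57, rose by 0.39 ± 0.16 in double-mutant PGCLC, 2.18 ± 0.16 in Otx2-/- PGCLC and 2.18 ± 0.16 in WT PGCLC. Tet1, an enzyme that oxidises methylated cytosine, rose by 1.73 ± 0.26 in double-mutant PGCLC, 3.52 ± 0.26 in Otx2-/- PGCLC and 1.84 ± 0.26 in WT PGCLC. Dnmt3b, a methyltransferase that adds new methylation, fell by 4.07 ± 0.17 in double-mutant PGCLC, 2.14 ± 0.17 in Otx2-/- PGCLC and 1.40 ± 0.17 in WT PGCLC. Between double-mutant and Otx2-/- PGCLC, 12 of the 19 were lower and 0 higher, with a median of -0.92 against -0.07 over all genes (48.3% of all genes called, 28.3% lower). Trim28 (12.45 to 12.52 in double-mutant PGCLC, 13.48 to 13.88 in Otx2-/- PGCLC) differed by -1.18 ± 0.16 and Dnmt1 (9.05 to 9.34 in double-mutant PGCLC, 10.75 to 11.11 in Otx2-/- PGCLC) by -1.68 ± 0.19, with no overlap of arrays.

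A further list of 40 imprinted genes outside the 45 had 18 tested. Of these, 9 rose and 4 fell in Otx2-/- PGCLC, where 65.4% of all genes were called, and 10 rose and 4 fell in WT PGCLC, where 62.8% were. Cobl, an actin nucleator, rose by 4.00 ± 0.17 in the double mutant, 4.31 ± 0.17 in Otx2-/- PGCLC, 3.27 ± 0.17 in Otx2-/- EB and 3.60 ± 0.17 in WT PGCLC. Tnfrsf22, a decoy receptor for TRAIL at the Kcnq1 domain, was 10.11 to 11.01 in Otx2-/- PGCLC, 5.35 to 7.15 in Otx2-/- EB and 7.90 to 8.92 in WT PGCLC, so that Otx2-/- PGCLC exceeded Otx2-/- EB by 4.71 ± 0.34 (adjusted p = 2.18e-09).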

How the data were processed

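Biotin-labelled RNA of 21 samples was hybridised to Illumina mouse bead arrays, and the number of arrays, 3 per group, limits the precision (median SE 0.18 on the log2 scale). The authors deposited probe intensities with detection p-values, and a table of normalised log2 values with detection p-values, made with limma per the submitters' processing notes. The genome build is not given in the sources used here. In the deposited intensity table the column of Otx2-/- PGCLC replicate 2 stood in another probe order than its normalised column (rank correlation 0.00547). It was put back by rank, and all detection p-values were taken from the normalised table.

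Intensities were background-corrected and quantile-normalised with neqc (limma 3.58.1, R 4.3.3, offset 16). Of 45281 probes, 34885 had 1 gene symbol in the platform annotation, 18 several and 10378 none, and 21647 were kept. Groups were compared by limma's moderated test over 21 arrays with group as the only factor, in 12 comparisons, with Benjamini-Hochberg adjustment over 11649 genes, and tested on simulated data. Summed marker signals are on the linear scale without the offset. "At least" folds set an undetected group at the lowest signal of detected probes on each array (4.83 to 5.31). The imprinted genes and other lists were chosen with earlier results of these data known. Genes called at 2 or more on the log2 scale in any comparison are given per array, others by counts and by changes of 1 or more, and from other lists up to 4 genes with the smallest p-values. Symbols were matched to RefSeq promoters (GRCm38.p6) in Python 3.11.15, with plotting by matplotlib 3.10.9. Alternatives tried were the authors' normalised values, no further background correction, other detection filters, the mean of probes, a replicate block, only the groups compared, and leaving out each array.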

Additional observations from a re-analysis of the deposited data

Results flagged for a closer look

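The changes listed here differed between lines by the test of the difference itself (limma interaction term, log2 difference ± SE, 3 arrays per group, differences of at least 1). In the Otx2-/- line the change from EpiLC to PGCLC was lower than in the WT line for Igf2 (-6.73 ± 0.49, adjusted p = 1.89e-09), Dlk1 (-2.72 ± 0.39, adjusted p = 2.95e-05), Cdkn1c (-4.87 ± 0.35, adjusted p = 1.83e-09), Peg3 (-1.59 ± 0.33, adjusted p = 0.00159), Mest (-2.22 ± 0.30, adjusted p = 1.43e-05), Ndn (-1.01 ± 0.26, adjusted p = 0.00871) and Phlda2 (-1.95 ± 0.29, adjusted p = 4.39e-05). It was higher for Grb10 (3.08 ± 0.31, adjusted p = 3.05e-07), Cd81 (1.07 ± 0.24, adjusted p = 0.00338) and Ppp1r9a (1.30 ± 0.38, adjusted p = 0.0222). Among all 11649 genes, 16.4% had a called difference of this kind. Grb10 has a second probe at which the difference was not called (0.36 ± 0.27), and the call of Ppp1r9a was lost without any of 4 single arrays. For Peg10 the fit gave -1.47 (adjusted p = 9.28e-05), which is no measured size, since 3 of the 4 groups had no detected array. Peg10 was kept only through its WT PGCLC arrays, so its p-value lends no support of its own.

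In the double mutant the change was lower than in the Otx2-/- line for Dlk1 (-1.20 ± 0.39, adjusted p = 0.0129), Peg3 (-1.90 ± 0.33, adjusted p = 5.26e-05), Igf2r (-1.35 ± 0.36, adjusted p = 0.00359), Zdbf2 (-1.34 ± 0.35, adjusted p = 0.00323), Cd81 (-1.26 ± 0.24, adjusted p = 0.000172) and Gab1 (-2.0 ± 0.22, adjusted p = 2.11e-07). It was higher for Commd1 (1.42 ± 0.24, adjusted p = 4.52e-05). Among all genes 48.8% had a called difference of this kind. For Sfmbt2 the fit gave -2.12 (adjusted p = 1.47e-05) with no detected array in 3 of the 4 groups, and for Trappc9 -2.13 (adjusted p = 5.76e-06) with none in Otx2-/- EpiLC, so neither is a measured size. Dlk1 (-0.05), Sfmbt2 (-0.25) and Trappc9 (-0.11) were not called on the authors' normalised values.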

How the results depend on the processing

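Of the counts of called imprinted genes, 157 of 168 recomputed values stayed within 1.5 times the reported count. On the authors' normalised values the count was 8 (reported 16) between double-mutant PGCLC and EpiLC, 4 (8) between Otx2-/- and WT EpiLC, 3 (8) between double-mutant and Otx2-/- EpiLC and 11 (17) for the difference of inductions between double-mutant and Otx2-/- lines. Those values are compressed at the low end. With only the groups compared in the fit, double-mutant against Otx2-/- EpiLC gave 0 (limma, 11 at an unadjusted p-value below 0.05). That fit has fewer arrays to estimate the spread. The count was also 0 in the larger fit without double-mutant EpiLC replicate 1, and the cause was not tested. Leaving out 1 array gave 11 to 18 for Otx2-/- EB against WT PGCLC (11 without WT PGCLC replicate 1), 5 to 9 for Otx2-/- PGCLC against EB and 0 to 7 for double-mutant against Otx2-/- EpiLC.

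Of single-gene changes of at least 1, 28 of 1524 recomputed values lost the call and 0 changed direction. They were 18 of 108 on the authors' values, 3 of 108 with probes averaged (Impact in WT, 0.07, and Dlk1 in the double mutant, -0.55, with its difference of inductions, -0.65), 1 without the detection filter and 6 of 768 without single arrays. The cause was not tested.

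The replicate numbers did not pair the samples across all groups. The mean correlation of deviations between same-numbered arrays was -0.14 to 0.196 over 21 pairs of groups. In 1 pair, WT and Otx2-/- EpiLC, all 3 exceeded 0.1 (0.135, 0.29 and 0.164). Among the EpiLC and PGCLC groups of these lines every mean was positive, at 0.06 to 0.196, and whether they shared batches was not tested. The fit with the replicate block lost 0 of 108 calls, and gave 15 called between Otx2-/- and WT PGCLC (14 without it). Where no array of a group was detected, as for Sfmbt2, Peg10, Usp29 and Kcnq1ot1, the size of a change is limited by detection, and fitted values of such genes are not measured sizes.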
